A study of Homo sapiens with 4 samples.

Results

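Replication licensing is the step that readies each stretch of chromosomal DNA to be copied once per cell division, and messages of 10 licensing genes were followed here in HEK293 cells. The genes were MCM2, MCM3, MCM4, MCM5, MCM6, MCM7, MCM10, CDT1, CDC6 and GMNN. They were found by the RefSeq accession at the front of each probe name, a rule that uses no measured value. All 10 were matched among 17217 named genes, each by 1 target with 3 probes, which made 30 of 71998 probes. HEK293 is a transformed human embryonic kidney line carrying adenovirus type 5 DNA. It was left untreated, and RNA from 4 separately grown and extracted plates was hybridised to 4 single-colour arrays, called replicates 1 to 4. The design holds this 1 group, so no treatment or second line is compared, and plates in serum grown to confluence are the only growth state sampled.

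In G1 the origin recognition complex marks the sites where copying can start. CDC6 and CDT1 then load the ring of MCM2 to MCM7 around the DNA, and this loaded ring is the licence. When S phase begins, kinases and firing factors turn the ring into the active helicase, geminin (the product of GMNN) binds CDT1 so that no site is licensed again, and MCM10 acts at the activation step. Most of these genes are known targets of the E2F transcription factors, and their messages are abundant in dividing cells and scarce in resting ones. In RNA from a whole culture, a smaller share of cycling cells and less message per cell cannot be told apart.

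A gene's level was log2 of the mean of its probe values, and the study's own yardstick was used to read it. The baseline of an array was set at 2 SD over the mean of 10 seminal protein genes, and a gene's distance is its level minus that baseline in log2 units. Replicates 1 to 4 had baselines of 9.47, 9.94, 10.69 and 10.32, the highest on replicate 3. Of the control genes, SPATA5 and SPATA13 had mean levels of 9.97 and 9.72, and the others lay from 6.53 to 7.25. Averaged over arrays, the baseline was 10.10 with both as controls and 7.78 without them. A reading on or below the baseline can thus lie well above most controls. Detected genes are those whose distance averaged above 0. Distances of different genes come from probes of different affinity and do not rank their messages by abundance. Of genes known in HEK293 cells, VIM, KRT8, KRT18, NEFL and INA lay above the baseline on all 4 arrays, while the kidney transcription factors PAX2 and LHX1 lay below it on each array. The neurofilament gene NEFM was above it on 2 of 4 arrays, with levels of 13.57, 8.32, 13.09 and 8.08. Of 12 markers of other cell types, 2 were detected, COL1A1 at 0.37 and GFAP at 0.16 log2 units, and none lay above the baseline on all 4 arrays.

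All 10 licensing genes were detected, against 52.7% of all named genes. All 10 also lay above the baseline on every array, against 45.0% of named genes. A one-sided limma test of the distances called all 10 at an adjusted p under 0.05, against 45.9% of named genes. The median distance of the 10 was 3.77 log2 units, and that of all named genes, detected or not, was 0.26. On single arrays the median distance of detected genes ran from 1.71 on replicate 3 to 3.04 on replicate 1. That of the 10 ran from 3.05 to 4.43 on the same arrays. The share of named genes with a smaller mean distance ran from 65.6% for MCM10 to 99.7% for MCM7.

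**Figure D1:**
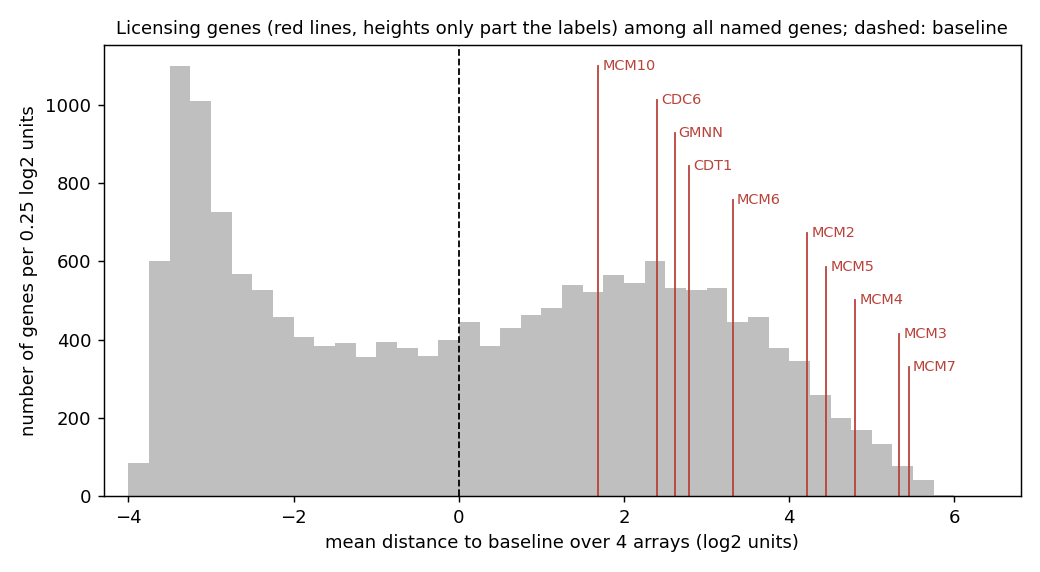
Number of named genes by mean distance to the baseline over 4 arrays, in bins of 0.25 log2 units, with the mean distances of the 10 licensing genes as red lines whose heights carry no value. All 10 lie to the right of the baseline, from 1.69 for MCM10 to 5.45 for MCM7.

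The helicase ring gave the larger distances. MCM2 had levels of 14.45, 14.33, 14.14 and 14.39 log2 units on replicates 1 to 4, which put it 4.22 ± 0.64 above the baseline (SD, n = 4). MCM3 had levels of 15.53, 15.61, 15.12 and 15.49 and a distance of 5.33 ± 0.70 (SD, n = 4). Replicate 3 was the lowest array for both genes. MCM4 read 15.09, 15.26, 14.65 and 14.61, a distance of 4.80 ± 0.80 (SD, n = 4), with replicates 1 and 2 above replicates 3 and 4. MCM5 read 14.52, 14.64, 14.49 and 14.57, a distance of 4.45 ± 0.54 (SD, n = 4). The levels of MCM5 had the smallest spread of the 10 genes, an SD of 0.06 log2 units. Its single probes spread more, with SDs of 0.17, 0.18 and 0.78.

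MCM6 read 13.35, 13.75, 13.34 and 13.23 and stood 3.31 ± 0.63 above the baseline (SD, n = 4), the smallest distance of the ring's 6 subunits. MCM7 read 15.65, 15.48, 15.60 and 15.49 and stood 5.45 ± 0.55 above it (SD, n = 4). On single arrays the distances of the 6 subunits ran from 2.65 to 6.19 log2 units. The subunits join in equal numbers in the ring, which is background. Whether their messages were equally abundant cannot be read from these probes.

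The loading factors, the inhibitor and MCM10 lay nearer the baseline, with mean distances from 1.69 to 2.79 log2 units. CDT1, the factor that brings the ring to the origin, read 12.55, 13.14, 12.96 and 12.91 and stood at 2.79 ± 0.43 (SD, n = 4). It was the only one of the 10 with its lowest level on replicate 1. CDC6, the ATPase that works with CDT1 at the origin, read 12.71, 12.54, 12.50 and 12.26 and stood at 2.40 ± 0.66 (SD, n = 4). GMNN read 13.12, 12.88, 12.50 and 12.36 and stood at 2.61 ± 0.85 (SD, n = 4). Both loaders and their inhibitor were above the baseline on the same 4 arrays.

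MCM10, which helps turn the loaded ring into a moving helicase, had the smallest distance. Its levels were 12.33, 11.87, 11.56 and 11.41, and its distances were 2.87, 1.94, 0.87 and 1.09, with a mean of 1.69 ± 0.91 (SD, n = 4). The limma adjusted p for MCM10 was 2.2e-06, the largest of the 10, and the next was 1.8e-11 for CDC6. With a baseline of 3 SD the mean distance of MCM10 was 0.37 log2 units, and limma no longer called it (adjusted p = 0.478), while the other 9 were still called. The prior of the fit was infinite, so each gene took the same standard error of 0.351 log2 units. With 4 arrays the smallest one-sided p of an exact sign-flip test is 0.0625, so that test cannot reach 0.05 for a single gene here.

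**Figure D2:**
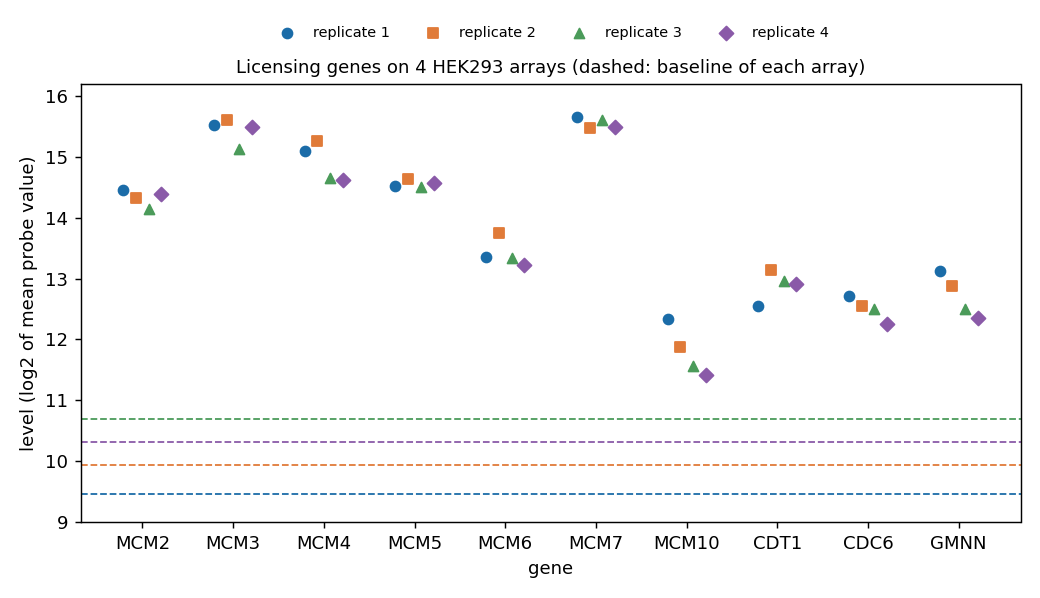
Level of each licensing gene in log2 units on each of the 4 HEK293 arrays, with 1 symbol per replicate and the baseline of each array as a dashed line of the same colour. All 40 points lie above the baseline of their own array, and MCM10 comes closest, at 11.56 on replicate 3 against a baseline of 10.69.

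Reference promoters were searched for the letters of E2F sites, because these genes are known E2F targets. The sequences are RefSeq promoters of build GRCh38.p14, and 8 of the 10 genes had an entry. MCM4 and MCM5 had none. The 250 bases before each start were read on both strands for TTCCCGC or TTCGCGC or TTGCCGC or TTGGCGC. Matches on opposite strands may overlap. Of the 8 promoters, 4 held at least 1 such word (50%), against 14.98% of the promoters of named genes and 18.92% of those of detected genes. The share over all 27305 promoters of the table was 11.02%. The CCAAT box was found in 5 of the 8 and in 36.16% of detected genes, and the GC box, GGGCGG, in 6 of the 8 and in 69.08%.

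The 4 promoters with matches are shown for the 190 bases before the start, 5′ to 3′ on the strand of the gene. Capitals mark the E2F-type words, read on either strand. The MCM6 promoter holds the run TTGGCGCGAA at 2 places, where words of both strands overlap. The CDT1 promoter holds a pair of words close to the start.
MCM3, chr6:52284743-52284932, minus strand: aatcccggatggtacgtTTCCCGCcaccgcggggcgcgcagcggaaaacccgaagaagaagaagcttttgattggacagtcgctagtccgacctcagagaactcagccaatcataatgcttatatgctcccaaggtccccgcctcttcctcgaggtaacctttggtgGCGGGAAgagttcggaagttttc
MCM6, chr2:135876444-135876633, minus strand: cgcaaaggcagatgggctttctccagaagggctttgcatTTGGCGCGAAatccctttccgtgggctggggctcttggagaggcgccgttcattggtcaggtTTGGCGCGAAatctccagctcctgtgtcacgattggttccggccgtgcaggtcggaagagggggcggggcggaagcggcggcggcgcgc
MCM7, chr7:100101398-100101587, minus strand: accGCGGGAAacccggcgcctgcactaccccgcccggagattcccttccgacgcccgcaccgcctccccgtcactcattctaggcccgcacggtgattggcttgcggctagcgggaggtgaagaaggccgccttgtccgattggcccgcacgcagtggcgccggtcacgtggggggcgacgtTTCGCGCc
CDT1, chr16:88803599-88803788, plus strand: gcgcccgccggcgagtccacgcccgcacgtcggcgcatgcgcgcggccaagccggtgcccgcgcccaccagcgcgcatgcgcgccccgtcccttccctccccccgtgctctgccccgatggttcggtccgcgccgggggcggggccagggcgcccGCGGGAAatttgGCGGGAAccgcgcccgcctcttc

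MCM2, MCM10, CDC6 and GMNN had no match in the window. A match is a run of letters and no measured binding, and the absence of these letters says nothing of E2F at a gene. Near the start of MCM7, on the opposite strand, lies AP4M1, which encodes a subunit of an adaptor complex. AP4M1 had distances of 0.55, 0.02, -0.08 and -0.09, a mean of 0.10 ± 0.30 (SD, n = 4), while MCM7 stood at 5.45. The signal of AP4M1 lay on the baseline, above it on 2 of 4 arrays, and that of MCM7 far above it.

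The levels of these genes varied less between plates than the typical detected gene, by the median. They were also brighter, with median levels of 13.74 to 14.04 on the 4 arrays against 12.35 to 12.51 for detected genes. Genes of like level were not compared, so the smaller spread is not read as particular to the licensing genes. The SD of a level over the 4 arrays ran from 0.06 for MCM5 to 0.41 for MCM10, with a median of 0.22, and the median was 0.33 over the 9074 detected genes. From the highest to the lowest array, MCM5 spanned 0.14 log2 units and MCM10 spanned 0.92. The distances spread more, with a median SD of 0.65. A distance subtracts the baseline, which itself had an SD of 0.52 between arrays. The levels also tended to be higher on replicates 1 and 2, where the baselines were lowest. All 10 distances were smallest on replicate 3, the array with the highest baseline, as were those of 68.4% of detected genes.

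All 10 levels were highest on replicate 1 or on replicate 2, with 5 genes on each, and none on replicate 3 or 4. Over the detected genes the share was 63.5%. Sorted probe values of replicates 1 and 2 match each other, and so do those of replicates 3 and 4, but the 2 pairs have different distributions. After quantile normalization of the 4 arrays together, 5 of the 10 genes were highest on replicate 1 or 2, against 47.5% of detected genes. The excess over detected genes was thus seen under the deposited scaling and not under the joint one. Replicates 1 and 2 both lay above replicates 3 and 4 for 6 of the 10 genes as deposited and for 3 of the 10 under the joint scaling. Those 3 were GMNN, MCM4 and MCM10. GMNN then read 13.04 and 12.80 on replicates 1 and 2 against 12.59 and 12.45 on replicates 3 and 4, and MCM4 read 15.03 and 15.19 against 14.71 and 14.68. MCM10 read 12.24 and 11.78 against 11.64 and 11.50. The other 7 did not keep that order, CDT1 among them, at 12.46 and 13.05 against 13.06 and 13.00. How many detected genes held that order was not counted, so these counts are not read as particular to the licensing genes. No test of the pairs was made, since they are no groups of the study.

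The single probes show how far each gene can be read. Of the 30 probes, 28 lay above the baseline on all 4 arrays (93.3%), against 34.3% of all probes and 70.9% of probes of detected genes. The other 2 belonged to GMNN and MCM10. Within a gene, the mean values of the 3 probes spanned from 0.50 log2 units for CDT1 to 4.88 for GMNN, with a median of 1.82. The median span was 1.89 for targets of detected genes.

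GMNN had the widest span, wider than that of 96.5% of named targets. Its probe with the number 3 in its name read 9.60, 8.59, 8.08 and 8.25, below the baseline on 3 of 4 arrays. Its probe 125 read 13.24, 12.90, 12.77 and 12.93, and its probe 1021 read 13.99, 13.83, 13.31 and 12.89. What the number in a probe name counts is not given in the sources used here. Among detected genes, 493 targets had a probe numbered under 60, and in 381 of them (77.3%) that probe was the dimmest of the 3. Where the lowest number was 60 or more, the lowest-numbered probe was the dimmest in 30.3% of 9649 targets.

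MCM10 had a probe, number 4280, that read 10.86 and 10.40 on replicates 1 and 2, above their baselines, and 8.29 and 10.02 on replicates 3 and 4, below theirs. Its probes 3241 and 3244, whose numbers differ least among the 10 genes, read 11.13 and 12.67 on replicate 3. On that array the pair lay further apart than on replicate 1, where they read 12.80 and 12.67. CDC6 spanned 2.69 log2 units, and its brightest probe was the one with the lowest number, 2138. MCM6 spanned 2.99, from a mean of 14.39 for probe 2297 to 11.40 for probe 3492.

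On replicate 3, 4 of the 30 probes lay more than 1 log2 unit under every other array (13.3%), against 9.86% of probes of detected genes. They were 1 probe each of MCM2, MCM3, MCM5 and MCM10. The MCM3 probe 2619 read 13.46 on replicate 3 and 14.88 to 15.36 elsewhere. The MCM5 probe 2253 read 12.99 there and 14.27 to 14.68 elsewhere, while the other MCM5 probes were highest on that array, at 15.12 and 14.65. A lower value on replicate 3 was thus not shared by the 3 probes of MCM5.

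At the bright end, 5 of the 30 probes exceeded 15 log2 units on all 4 arrays (16.7%), against 1.38% of all probes and 2.89% of probes of detected genes. They were all 3 probes of MCM7 and 2 of MCM3. The highest value in the table was 15.99. Whether such spots were saturated was not examined, and the small spread of MCM7, with an SD of 0.09 between arrays, is given with that limit.

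**Figure D3:**
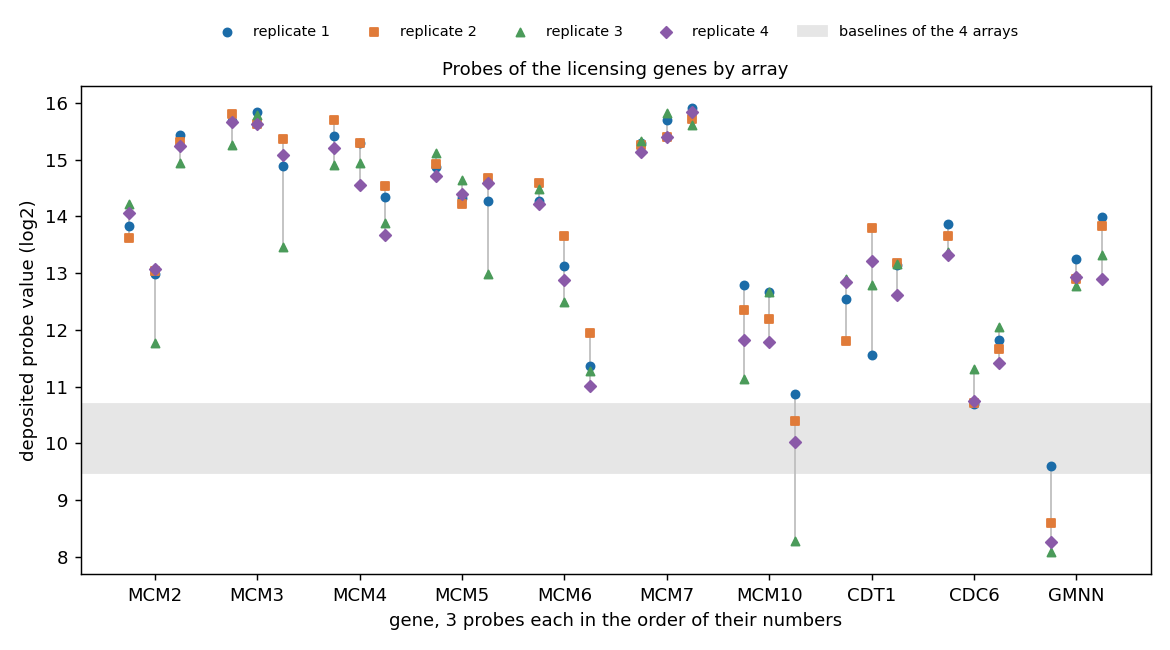
Deposited log2 value of each of the 30 probes of the licensing genes, 3 per gene in the order of their probe numbers, with 1 symbol per replicate, a grey line from the lowest to the highest array, and the range of the 4 baselines shaded. The first GMNN probe lies at or below the shaded band, and single probes of MCM2, MCM3, MCM5 and MCM10 drop on replicate 3.

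The other genes of the pathway were read from lists ordered by role. Of 64 listed genes, 61 were matched and 57 of these were detected (93.4%), with a median distance of 2.86 log2 units. Limma called 54 of them. Of all named genes, 52.7% were detected and 45.9% were called by limma. The same shares are the comparison for each single list below. The geminin relatives GMNC and MCIDAS and the cyclin gene CCNE2 were not matched.

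Of the 6 origin recognition genes, 5 were detected, each on all 4 arrays. The distances were 2.90 ± 0.55 for ORC2, 2.91 ± 0.71 for ORC3, 2.97 ± 0.62 for ORC5 and 2.86 ± 0.57 for ORC6 (SD, n = 4 for each). ORC2 rests largely on 1 bright probe, with a mean of 14.33 against 11.22 and 10.67 for the others, and by the median of its probes it lay at 1.25. The higher target of ORC5 gave 3.96 and the lower 1.95, each against a baseline reset by the same choice of target among the controls. By the median of probes ORC5 lay at 1.79. ORC1, the subunit known to vary through the cell cycle, stood at 1.85 ± 0.53 (SD, n = 4). ORC4 was the exception, with distances of 0.36, 0.15, -0.58 and -0.63 and a mean of -0.18 ± 0.51 (SD, n = 4). The arrays of ORC4 fell on both sides of the baseline. The sign of ORC4 turned with a lower baseline, at 1.14 with 1 SD, where limma called it (adjusted p = 0.000415).

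Outside the ring, MCM8 stood at 3.48 ± 0.86 and MCMBP, which binds MCM proteins, at 1.60 ± 0.49 (SD, n = 4 for each). MCM9 is the partner of MCM8 in DNA repair, and its distance of 1.00 ± 0.36 (SD, n = 4) passed the limma test with an adjusted p of 0.0054. The MCM9 value rests on 1 bright probe, with a mean of 12.51 against 8.84 and 7.72 for the others. Summarised by the median of the probes, MCM9 lay at -1.03 and MCMBP at 0.83.

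Among 14 genes of helicase activation and origin firing, 13 were detected and 10 were called by limma. CDC45 and the GINS complex join the ring to form the active helicase. CDC45 stood at 4.06 ± 0.49, GINS2 at 3.73 ± 0.72, GINS1 at 2.59 ± 0.39 and GINS3 at 2.32 ± 0.88 (SD, n = 4 for each). By the mean of log2 probe values GINS3 lay at 1.51. GINS4 lay on the baseline, at -0.09, 0.25, -0.31 and 0.53 on replicates 1 to 4, with a mean of 0.09 ± 0.37 (SD, n = 4, limma adjusted p = 0.760). Its dimmest probe carried the number 2 and had a mean of 8.46, against 10.40 and 10.79 for the others. Without replicate 4 the mean of GINS4 was -0.049.

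The kinase CDC7, which phosphorylates the loaded ring, read 2.31 ± 0.69 (SD, n = 4). Of its 3 probes, only number 2776 lay above the baseline on all 4 arrays. Its probe 1706 read 12.55, 5.81, 12.96 and 11.72 on replicates 1 to 4. DBF4, the activating subunit of CDC7, lay below the baseline on all 4 arrays, at -1.25, -3.02, -4.01 and -2.47, with a mean of -2.69 ± 1.15 (SD, n = 4). The 3 probes of DBF4 had means of 6.99, 7.47 and 7.54 log2 units, so the low reading was shared by all of them. With the lowest baseline tried, DBF4 remained below it, at -0.36. The related subunit DBF4B stood at 1.39 ± 0.59 (SD, n = 4). Its higher target gave 2.51 and its lower 0.23, the latter not called (limma adjusted p = 0.521). For these targets too the baseline was reset by the same choice among the controls.

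The firing factors TOPBP1 and TICRR stood at 2.72 ± 0.80 and 2.55 ± 0.80, and the replication fork factor DONSON at 3.91 ± 0.66 (SD, n = 4 for each). MTBP at 0.53 ± 0.72 and WDHD1 at 0.60 ± 0.85 did not pass the limma test (SD, n = 4 for each, adjusted p = 0.136 and 0.0960). WDHD1 ran from 0.27 without replicate 2 to 0.96 without replicate 3, where limma called it (adjusted p = 0.0119). It was also called with the mean of log2 probe values and without its highest probe (limma adjusted p = 0.0298 and 0.0115). MTBP ran from 0.18 without replicate 1 to 0.73 without replicate 4 and was called when only replicates 1 and 2 were kept, with a limma adjusted p of 0.0321. The helicase gene RECQL4, at 0.78 ± 0.68 (SD, n = 4), passed it narrowly (adjusted p = 0.030). Its limma adjusted p was 0.204 without replicate 1, 0.0676 without replicate 4 and 0.0558 with a trend and a robust prior.

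Of 12 matched regulators of licensing, 11 were detected and called. The kinase gene CDK2 stood at 4.92 ± 0.52 and its cyclins CCNE1 and CCNA2 at 2.96 ± 0.60 and 3.86 ± 0.87 (SD, n = 4 for each). Genes for the ligases that destroy CDT1 were among them, with SKP2 at 4.33 ± 0.57, DDB1 at 5.15 ± 0.64, CUL4A at 3.35 ± 0.70, CUL4B at 4.07 ± 0.73 and DTL at 1.53 ± 1.04 (SD, n = 4 for each). DTL, which brings CDT1 to its ligase, came within 0.19 of the baseline on replicate 3, and on replicates 3 and 4 alone it was not called, at 0.72 (limma adjusted p = 0.0956). KAT7, an acetyltransferase that helps load the ring, stood at 3.61 ± 0.79, BAZ1A at 2.68 ± 0.93 and LRWD1, a partner of the origin recognition complex, at 2.52 ± 0.52 (SD, n = 4 for each).

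FZR1, an activator of the ligase that destroys geminin in G1, was the regulator below the baseline, at -1.47, -2.30, -1.31 and -2.01, with a mean of -1.77 ± 0.46 (SD, n = 4). Its sign turned with the lowest baseline tried, to 0.56, where limma called it (adjusted p = 0.0371). For polymerases, clamp and fork factors, 25 of 26 genes were detected and called. The largest distances were those of RPA1 at 5.04 ± 0.75, POLD2 at 4.75 ± 0.76, PCNA at 4.58 ± 0.72 and RFC2 at 4.45 ± 0.65 (SD, n = 4 for each). RPA3, the smallest subunit of the single-strand binding protein, lay below the baseline on all 4 arrays, with a mean of -2.41 ± 0.49 (SD, n = 4), and at -0.08 with the lowest baseline tried. DBF4, FZR1 and RPA3 were each read by 1 target of 3 probes, and a reading below the baseline was not taken as absence of the message.

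**Figure D4:**
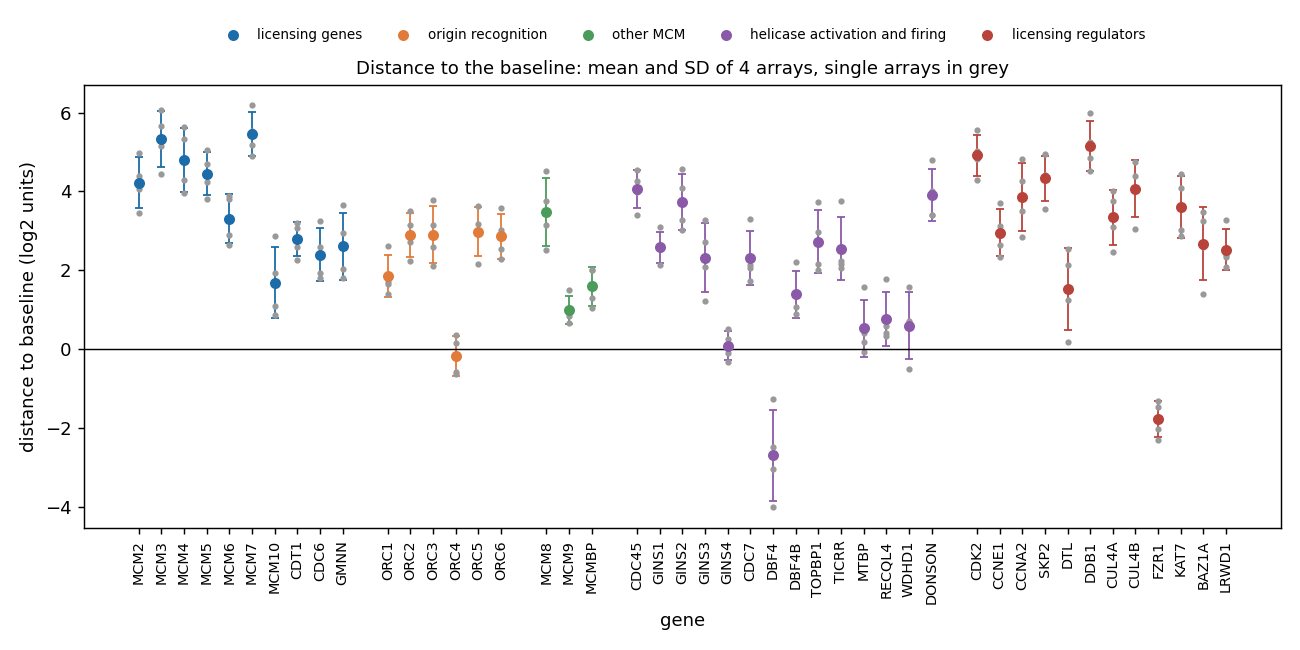
Distance to the baseline in log2 units for the licensing genes and 4 lists of the pathway, with coloured points and bars for the mean and SD of 4 arrays and grey points for single arrays. The 10 licensing genes lie above 0 on every array, ORC4, GINS4, MTBP and WDHD1 have arrays on both sides of 0, and DBF4 and FZR1 lie below it on every array.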

How the data were processed

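HEK293 RNA from 4 untreated plates was hybridised in 1 colour to NimbleGen arrays designed on HG18. The authors deposited log2 probe values, extracted with NimbleScan and log2 transformed per the study's methods. The submitters' processing notes name RMA. Sorted values agreed within replicates 1 and 2 and within replicates 3 and 4, but not between these pairs. No raw intensities were used. Depth does not apply, and the number of arrays limits precision.

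Unversioned accessions were looked up in RefSeq's gene table for GRCh38.p14, which named 19125 of 24000 targets and 17217 genes. Probes of a target were averaged on the linear scale before taking log2, and targets of a gene were averaged in log2. PYY2, 1 of the 11 seminal control genes, was not matched. Distances were fitted over all 17217 genes with limma 3.58 in R 4.3 (one-sided, Benjamini-Hochberg at 0.05). The fit had first been tried on simulated data, with independent values and the same SD for every gene. That trial held no baseline shared between genes. All genes on an array share its baseline, so their tests were not independent. In the 19 alternatives, probe summaries, targets, baselines, controls, scaling, arrays and the prior were varied.

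Members and lists were chosen with earlier results of these data known. Named were the 10 members, the control genes, the genes of the lists for origin recognition, other MCM genes, geminin relatives, firing and regulators, and of the fork list those not detected and the 4 with the largest distance.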

Additional observations from a re-analysis of the deposited data

Results flagged for a closer look

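Of 50 gene levels, gene distances and probe values of the licensing genes, 3 held an array whose gap to its nearest neighbour, divided by the whole range, was over the 95% critical value of Dixon's test. Chance gives about 1 in 20. For the second CDC6 probe, number 2840, replicate 3 read 11.30 and the others 10.68 to 10.74, a ratio of 0.909. For the third CDT1 probe, number 2424, replicate 4 read 12.61 and the others 13.15 to 13.17, a ratio of 0.961. For the second MCM2 probe, number 2487, replicate 3 read 11.76 and the others 12.99 to 13.07, a ratio of 0.937. The share was 10% of the 30 member probes and 7.48% of the probes of detected genes. No level and no distance of a whole gene exceeded that value, and a cause was not tested.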

How the results depend on the processing

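Of 190 values of the 10 distances under 19 alternatives, 189 kept their sign and their call and 1 lost the call (MCM10 with 3 SD, above). The count of detected licensing genes was 10 under each, and the count on all arrays and by limma was 9 with 3 SD and 10 otherwise. Their median distance of 3.77 was 5.08 with 1 SD, 2.45 with 3 SD, 6.09 without SPATA5 and SPATA13 as controls, 5.85 with olfactory receptor genes and 5.47 with the median and MAD, and 3.55 to 4.01 with each replicate left out. On replicates 1 and 2 alone it was 4.27, and on replicates 3 and 4 alone 3.27, where MCM10 stood at 0.98. The detected pathway genes numbered 50 to 59, beside the 6731 to 12747 of all named genes, and those called by limma 42 to 59.

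Of 760 values of the 40 named pathway genes, 18 changed sign. Of those that kept it, 11 lost a limma call and 17 gained one. Calls that changed with the sign kept are listed first, and then those that came with a change of sign. The losses with 3 SD were ORC1 at 0.53, MCMBP at 0.28, DTL at 0.21 and DBF4B at 0.074, with adjusted p of 0.252, 0.652, 0.803 and 1.0. On replicates 3 and 4 alone MCM9 at 0.75, DTL at 0.72 and RECQL4 at 0.50 lost theirs, with adjusted p of 0.0515, 0.0956 and 0.174. The other losses were those of DBF4B and RECQL4 given above. With the sign kept, the gains were those of GINS4, MTBP and WDHD1 with each of the lower baselines. MTBP and WDHD1 also gained a call on replicates 1 and 2 alone, and WDHD1 under the 3 settings given above. ORC4 turned to 0.018 with the median of probes, 0.13 without the highest probe, 1.14 with 1 SD, 2.15 without SPATA5 and SPATA13, 1.91 with olfactory controls, 1.53 with the MAD and 0.26 on replicates 1 and 2. Limma also called ORC4 with 1 SD, without SPATA5 and SPATA13, with olfactory controls and with the MAD, and not in the other settings named. MCM9 turned to -0.078 with the mean of log2 values, -1.03 with their median, -1.05 without the highest probe and -0.32 with 3 SD. In each of these settings MCM9 lost its limma call. With 3 SD, GINS4 turned to -1.22, MTBP to -0.79, RECQL4 to -0.54 and WDHD1 to -0.72, and of these RECQL4 lost a call. With each replicate left out GINS4 ran from -0.049 (without replicate 4) to 0.23. FZR1 turned to 0.56 without SPATA5 and SPATA13, where limma called it (adjusted p = 0.0371). With olfactory controls FZR1 turned to 0.31 and was not called (limma adjusted p = 0.186). A lower baseline raises each distance by construction. Averaged over arrays, the baseline was 10.10 in the main setting and 9.52 without the highest probe of each target, controls included. It was 9.77 with the mean of log2 values, 9.97 with their median and 9.70 on replicates 1 and 2 alone. For the changes outside the settings that reset the baseline, the cause was not tested. No paired analysis was possible because the design holds 1 group.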
